A study of Mus musculus with 21 samples.

Results

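MicroRNA genes on an expression array of sorted mouse embryonic pancreas are described here. Members were the probe sets whose platform annotation gave exactly 1 gene symbol, that symbol starting with Mir and a digit or with Mirlet7, host genes ending in hg left out. A total of 294 probe sets met this rule. They stand for 293 genes, because Mir713 had 2 probe sets and the brighter one was kept, out of 19296 named genes in all. A further 36 probe sets whose annotation listed a microRNA symbol among several were not used.

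The study followed pancreas formation from embryonic days E12.5 to E15.5 in mice of a mixed C57-Bl6/SV129/CD1 background. The embryos carried FVF, a fusion of the Venus fluorescent protein to the transcription factor Foxa2, which in the pancreas marks epithelium, and pancreata were sorted by flow cytometry into Venus-positive (FVF+) and Venus-negative (FVF-) cells. Of 21 arrays, 11 were FVF+, with 2 for E13.5 and 3 for each of E12.5, E14.5 and E15.5, and 10 were FVF-, with 2 for each of E12.5 and E13.5 and 3 for the later days. The submitters call the arrays of a group biological replicates, but the labels used here do not say whether each came from a separate embryo, litter or pool, so the p-values measure only the spread between these samples. All groups share the strain background and the reporter, and the FVF- fraction is a mixture defined by lack of the reporter, not by a marker of its own.

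A microRNA is made from a longer primary transcript, which Drosha and Dgcr8 trim in the nucleus to a hairpin and Dicer1 cuts in the cytoplasm to a short mature strand. The mature strand sits in an Argonaute protein and pairs with target mRNAs mainly through its seed, the stretch near its 5' end. Many microRNA genes lie inside host genes or in clusters that share 1 primary transcript. The values here come from amplified total RNA read by probes assigned to the microRNA gene, so they can include the primary transcript, the host's intron or the hairpin, and they are not measurements of the mature strand.

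Among the members on which the results turn, some share a seed and others do not. Mature sequences of several of them are printed 5' to 3' from RefSeq on GRCm38.p6, with the seed, bases 2 to 8, in capitals. The first set is the miR-200 family, higher in FVF+ cells on all 4 days, whose members carry 2 seeds:
mmu-miR-200b-3p: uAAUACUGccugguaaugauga
mmu-miR-200c-3p: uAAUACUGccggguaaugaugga
mmu-miR-200a-3p: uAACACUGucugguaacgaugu
mmu-miR-141-3p: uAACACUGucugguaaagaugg
Mir200b and Mir200a lie on the minus strand of chromosome 4, with these mature stretches at chr4:156055685-156055706 and chr4:156054911-156054932. Mir200c and Mir141 lie on the minus strand of chromosome 6, at chr6:124718324-124718346 and chr6:124717917-124717938. Each pair therefore holds 1 gene of each seed.

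The second set comes from the islet microRNA genes that were higher in FVF+ cells:
mmu-miR-375-5p: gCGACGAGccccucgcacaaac
mmu-miR-7a-5p: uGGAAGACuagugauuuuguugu
The miR-7a seed is carried by 3 members, Mir7-1, Mir7-2 and Mir7b. Of the strands of Mir375, the reference table held only the 5p strand, so the seed of the 3p strand is not shown. The islet function given below for Mir375 is not assigned to the printed strand.

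The third set is from genes with at least 2-fold lower levels in FVF+ than in FVF- cells:
mmu-miR-218-5p: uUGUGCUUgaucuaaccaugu
mmu-miR-199b-3p: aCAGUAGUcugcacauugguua
mmu-miR-365-3p: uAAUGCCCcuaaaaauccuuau
mmu-miR-708-5p: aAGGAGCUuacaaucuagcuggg
mmu-miR-100-5p: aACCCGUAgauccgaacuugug
mmu-miR-382-5p: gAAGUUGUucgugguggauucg
mmu-miR-134-5p: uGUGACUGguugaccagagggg
These 7 have different seeds. The last 2 are from the imprinted Dlk1-Dio3 region of chromosome 12, on the plus strand at chr12:109733781-109733802 and chr12:109734145-109734166.

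The fourth set is from genes that fell between E12.5 and E15.5:
mmu-miR-181b-5p: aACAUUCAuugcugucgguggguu
mmu-miR-181a-5p: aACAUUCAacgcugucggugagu
mmu-miR-19b-3p: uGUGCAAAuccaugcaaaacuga
mmu-miR-17-5p: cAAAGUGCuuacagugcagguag
mmu-miR-20a-5p: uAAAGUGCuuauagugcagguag
mmu-let-7d-5p: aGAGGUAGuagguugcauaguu
The miR-181 seed is shared by 6 members and the miR-17 seed by 6, while miR-19b, made in the same cluster as miR-17 and miR-20a, has a seed carried by 3. The let-7 seed was found in 9 members among the mature strands that the reference held, and the let-7 gene Mirlet7a-2 was not among them. In all, 268 members had a mature sequence in the reference, with 471 distinct matures, and 20 seeds were shared by 3 or more members.

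Most microRNA probe sets were dim. Mean log2 levels over the 21 arrays ran from 4.37 to 11.36, with a median of 6.86 against 8.83 for all named genes, and 46 members, or 15.7%, lay above that median of all genes. Mir341 (11.36), Mir134 (11.27), Mir692-1 (11.26), Mir7-1 (10.81) and Mir346 (10.34) had the highest means. Probes differ in response, so these levels do not rank the genes by amount of RNA. The values are RMA log2 intensities, which have no true zero, so a low value is a dim probe set and not evidence of absence.

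The sorted fractions matched their names by the markers of each. The mean level of 6 epithelial genes (Epcam, Cdh1, Cldn6, Esrp1, Krt8 and Krt18) was 12.79 to 13.08 in the FVF+ arrays and 8.28 to 10.10 in the FVF- arrays. For 6 mesenchyme genes it was 7.63 to 9.15 and 11.53 to 12.63. The 7 endocrine genes ran from 11.22 to 13.30 in FVF+ and from 7.79 to 9.19 in FVF-. Smooth muscle, endothelial, red blood cell and macrophage genes were all higher in FVF- arrays, so that fraction mixes several cell types. Several arrays differed from their own group in such markers. FVF- E14.5 replicate 3 had epithelial genes at 10.10 against 8.48 and 9.47, and FVF+ E12.5 replicate 1 had mesenchyme genes at 8.96 against 7.63 and 7.86, though both FVF+ E13.5 arrays, at 9.15 and 9.13, were higher still. FVF+ E13.5 replicate 2 had endothelial genes at 9.43 against 7.80, FVF+ E14.5 replicate 2 at 9.46 against 8.46 and 8.58, and FVF- E15.5 replicate 2 had endocrine genes at 9.19 against 7.85 and 8.31. The fits were repeated without FVF- E14.5 replicate 3 and FVF+ E12.5 replicate 1 together, a pair chosen after seeing the data, and without each array singly. In such bulk samples fewer cells of a type and less RNA per cell cannot be told apart.

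The first comparison asked which microRNA genes differ between the sorts, taken as the mean of the 4 daily differences. Averaged over days, 107 of the 293 members passed the test in limma (adjusted p under 0.05 by Benjamini and Hochberg over all 19296 genes), or 36.5%, against 55.7% of all named genes. Of these, 37 were higher in FVF+ cells and 70 were lower, while over all genes 30.5% were higher and 25.2% lower. The median difference was -0.03 for the members and 0.03 for all genes. Only 10 members were called at 2-fold or more, 3.41%, against 11.8% of all genes: Mir200b and Mir375 were higher in FVF+ cells, and Mir145a, Mir218-1, Mir199b, Mir365-1, Mir708, Mir100, Mir382 and Mir134 were lower. Without FVF- E14.5 replicate 3 and FVF+ E12.5 replicate 1 the counts were 33 higher and 73 lower.

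**Figure D1:**
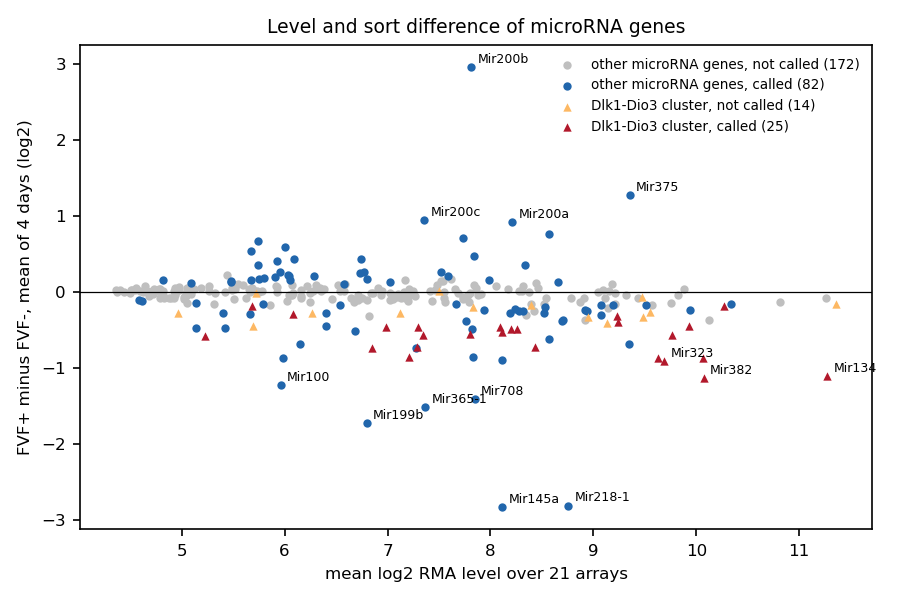
Mean log2 level over 21 arrays (horizontal axis) against the mean log2 difference of FVF+ minus FVF- over 4 days (vertical axis) for 293 microRNA genes, 1 point per gene, with triangles for the Dlk1-Dio3 cluster and colour for genes that passed the test. Mir200b, at 2.96, lies farthest above 0, Mir145a and Mir218-1, at -2.83 and -2.81, lie farthest below it, and 25 of the called genes are triangles, all below 0.

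The miR-200 family separated the sorts most clearly among the members higher in FVF+ cells. These microRNAs repress Zeb1 and Zeb2, transcription factors of the mesenchymal state, and are a mark of epithelia. Of 10 measured genes on a list of epithelial microRNAs, 9 were higher in FVF+ cells (30.5% of all genes) and 0 were lower (25.2%). Their median difference was 0.34. Without FVF- E14.5 replicate 3 and FVF+ E12.5 replicate 1, 8 were higher.

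Mir200b in FVF+ cells was at 9.74, 9.62 and 9.88 at E12.5, 9.23 and 9.29 at E13.5, 9.20, 8.74 and 9.48 at E14.5, and 7.97, 9.53 and 8.79 at E15.5. In FVF- cells it was at 6.23 and 6.77, then 6.16 and 6.04, then 6.33, 5.78 and 6.98, and then 5.83, 6.23 and 6.24. Every FVF+ array was above every FVF- array. The mean difference was 2.96 ± 0.17 (SE; adjusted p = 2.6e-11), a 7.79-fold difference.

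The other family members had smaller differences. Mir200c ranged from 7.61 to 8.36 in FVF+ and from 6.57 to 7.31 in FVF-, a mean difference of 0.95 ± 0.08. Mir200a ranged from 7.99 to 9.06 and from 7.52 to 7.89, a difference of 0.92 ± 0.09, and neither gene overlapped between the sorts. Mir141 was at 5.88 to 6.57 and 5.54 to 5.95, with 1 FVF+ array, at E15.5, inside the FVF- range, and a difference of 0.59 ± 0.08. Although Mir200b and Mir200a are neighbours, as are Mir200c and Mir141, the probe sets differ in response and the sizes should not be compared as amounts.

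Of the remaining epithelial list, Mir192, a microRNA of gut, liver and kidney epithelium, was higher by 0.41 ± 0.08 and Mir205, of stratified epithelium, by 0.27 ± 0.07. Mir194-1, which shares a cluster with a relative of Mir192, passed narrowly at 0.14 ± 0.06 (limma, adjusted p = 0.0499). Mir203, a microRNA of skin, was the member that did not pass, at 4.88 to 4.99 in FVF+ and 4.82 to 5.03 in FVF-.

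**Figure D2:**
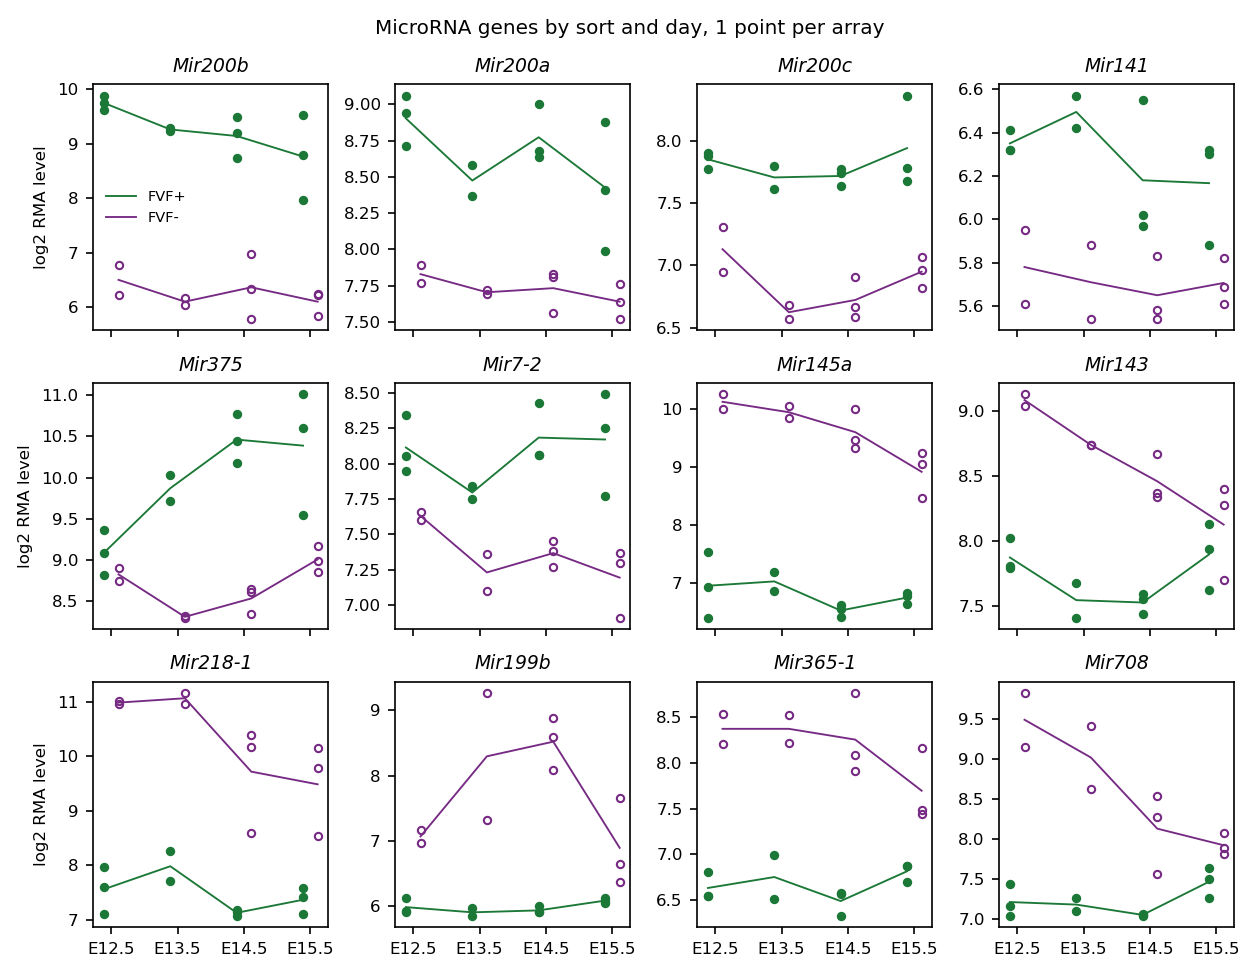
Log2 level of 12 microRNA genes by embryonic day, 1 point per array, filled green for FVF+ and open purple for FVF-, with lines through the group means. The Mir200b arrays of the sorts do not overlap on any day, and the Mir375 arrays overlap only at E12.5.

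The islet and endocrine list was mixed, with 8 of 18 measured genes higher in FVF+ cells (30.5% of all genes) and 0 lower (25.2%). Its median difference was 0.07. Mir375, an abundant islet microRNA that restrains insulin secretion, was the largest. In FVF+ cells it was at 9.36, 8.82 and 9.08 at E12.5, 10.03 and 9.71 at E13.5, 10.17, 10.77 and 10.44 at E14.5, and 9.55, 11.01 and 10.60 at E15.5. In FVF- cells it lay between 8.30 and 9.17. The sorts overlapped at E12.5, where the difference of 0.26 did not pass (limma, adjusted p = 0.513), and did not overlap on the other days, with differences of 1.56, 1.93 and 1.38. Its mean difference was 1.28 ± 0.14 (adjusted p = 2.0e-07), or 2.43-fold.

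Mir7-2, 1 of the genes for miR-7a, a microRNA abundant in endocrine pancreas, ranged from 7.75 to 8.49 in FVF+ and from 6.91 to 7.66 in FVF- cells. The ranges did not overlap, and its difference was 0.71 ± 0.09. Mir7-1, which makes the same mature strand from the intron of another gene, did not pass, at -0.13, and Mir7b was higher by 0.14 ± 0.05. Mir153, which lies in the granule protein gene Ptprn2, was higher by 0.36 ± 0.08, and Mir9-3, of a neuronal microRNA also found in islets, by 0.22 ± 0.06. Mir182 and Mir183, of a sensory cell cluster, were higher by 0.19 and 0.16.

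The exocrine pancreas list had 4 measured genes. Mir216b was higher by 0.20 ± 0.06 in FVF+ cells (limma, adjusted p = 0.0126), a call lost without FVF- E13.5 replicate 1 (0.15, adjusted p = 0.0529). Mir148a, at 0.23 ± 0.11 (adjusted p = 0.0683), and Mir216a, at 0.10, did not pass.

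Outside the lists, Mir694 (0.77 ± 0.14), Mir568 (0.68 ± 0.13), Mir340 (0.54 ± 0.18) and Mir680-1 (0.48 ± 0.10) were among the 10 largest positive differences. Mir694 and Mir568 differed on some days only: Mir694 was higher at E12.5 by 1.29 and at E15.5 by 1.31, and Mir568 at E12.5 by 0.93 and E14.5 by 1.17. Mir340 passed only at E15.5, by 1.48. No role in pancreas is given here for these 4.

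Lower members were led by genes of mesenchyme and smooth muscle. Of 8 measured genes on that list, 6 were lower in FVF+ cells (25.2% of all genes) and 1 was higher (30.5%). The median was -0.87. Mir145a and Mir143 are neighbours on chromosome 18 and make 2 smooth muscle microRNAs from 1 transcript. Mir145a lay between 6.40 and 7.53 in FVF+ arrays. In FVF- arrays it was at 9.99 and 10.25 at E12.5, 10.04 and 9.84 at E13.5, 9.33, 10 and 9.46 at E14.5, and 8.46, 9.24 and 9.04 at E15.5. The sorts did not overlap, and the mean difference was -2.83 ± 0.13 (adjusted p = 7.7e-13), or 7.12-fold.

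Mir143 showed a smaller difference, -0.89 ± 0.09, which was -1.21 at E12.5 and -1.20 at E13.5 and did not pass at E15.5 (-0.23, limma, adjusted p = 0.255). The 4 smooth muscle marker genes were at 7.92 to 8.84 in FVF+ arrays and 10.06 to 11.02 in FVF- arrays, and the 6 mesenchyme markers had the ranges given above.

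Mir218-1, in an intron of the axon guidance gene Slit2, ranged from 7.06 to 8.26 in FVF+ cells. In FVF- cells it was at 10.96 and 11.02 at E12.5, 11.17 and 10.97 at E13.5, 8.60, 10.39 and 10.17 at E14.5, and 8.53, 10.15 and 9.78 at E15.5. The ranges did not overlap, and the mean difference was -2.81 ± 0.22 (adjusted p = 1.5e-09), 7.02-fold. Mir199b, a mesenchymal microRNA gene on the strand opposite Dnm1, was at 5.84 to 6.12 in FVF+ and 6.37 to 9.27 in FVF- cells, with a mean difference of -1.72 ± 0.19. By day it was -1.08, -2.40, -2.59 and -0.81, the last not passing (limma, adjusted p = 0.0741). The E13.5 value was -1.42 without FVF- replicate 1 of that day, which at 9.27 stood above its partner at 7.32.

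Mir152, in the coatomer gene Copz2, had a difference of -0.85 ± 0.10, and Mir199a-1 of -0.38 ± 0.07. Mir140, a cartilage microRNA in the gene Wwp2, was the member of this list with the other sign, at 0.44 ± 0.06. It was at 6.43, 6.88 and 6.70 in FVF+ and at 5.66 and 5.96 in FVF- cells at E12.5. Mir218-2, at 0.00, did not pass.

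Among other members lower in FVF+ cells, Mir365-1 lay at 6.32 to 6.99 in FVF+ and 7.44 to 8.77 in FVF-, with a difference of -1.51 ± 0.11 and no overlap. Mir708 was at 7.04 to 7.64 in FVF+ and 7.57 to 9.82 in FVF-, a difference of -1.41 ± 0.12 with overlap only between days. Its daily differences were -2.27, -1.83, -1.07 and -0.45, the last not passing (limma, adjusted p = 0.114). Mir100, of a cluster with Mirlet7a-2 and Mir125b-1, was at 5.11 to 5.64 in FVF+ and 5.56 to 8.01 in FVF-, with a difference of -1.22 ± 0.17. Mir125b-1, from the same host transcript, was at -0.68 ± 0.09. Mir126a, the endothelial microRNA in Egfl7, was at 5.05 to 5.28 in FVF+ and 5.31 to 6.13 in FVF- arrays, a difference of -0.47 ± 0.09, while 4 endothelial marker genes were at 7.56 to 9.46 and 10.16 to 11.73.

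The Dlk1-Dio3 region carries one of the largest groups of microRNA genes in the mammalian genome, expressed from the maternal chromosome as part of long noncoding transcripts. In it, 39 members spanning 171.4 kb from Mir673 to Mir369 were measured. Of these, 25 were lower in FVF+ cells (25.2% of all genes) and 0 were higher (30.5%). The median was -0.44, against 0.03 for all genes. All but 1 of the 39 had a negative difference, and the range was -1.13 to 0.02. The 254 members outside the cluster had 37 higher, 45 lower and a median of -0.01, so 25 of the 70 lower calls came from this region.

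Mir382 in FVF+ cells was at 10.02, 10.23 and 10.15 at E12.5, 9.68 and 9.43 at E13.5, 9.53, 9.07 and 9.49 at E14.5, and 8.96, 9.41 and 8.96 at E15.5. In FVF- cells it lay between 10.04 and 11.27. The fractions overlapped only across days, not within a day, and the mean difference was -1.13 ± 0.14 (adjusted p = 1.0e-06). Mir134 was at 10.25 to 11.19 in FVF+ and 11.19 to 12.34 in FVF-, ranges that met at 1 value, with a difference of -1.10 ± 0.11. Mir323 (-0.91 ± 0.17) and Mir377 (-0.87 ± 0.13) followed. Mir341, the brightest member, did not pass, at -0.16.

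By day, the cluster had 0 members called at E12.5, with a median of -0.10, then 7 lower at E13.5 (-0.56), 25 lower at E14.5 (-0.80) and 8 lower at E15.5 (-0.36), with 0 higher on any day. Over all genes, 18.7%, 15.2%, 21.5% and 19.5% were lower on these days, so the counts of E13.5 and E15.5 were near those shares. Only the E14.5 difference was negative in all 39. The median over all microRNA genes was also lower that day in FVF+ arrays, at 6.56 to 6.67 against 6.75 to 6.93 in FVF- arrays. The part of that shift in the cluster's E14.5 count was not tested. From E12.5 to E15.5, 14 fell in FVF+ cells with a median of -0.39 and 2 fell in FVF- cells with a median of -0.18. Of all genes, 19.3% fell in FVF+ and 9.7% in FVF- cells. Without FVF- E14.5 replicate 3 and FVF+ E12.5 replicate 1, 10 fell in FVF+ cells. The difference between the time changes was called in 0 of the 39, against 19.6% of all genes.

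**Figure D3:**
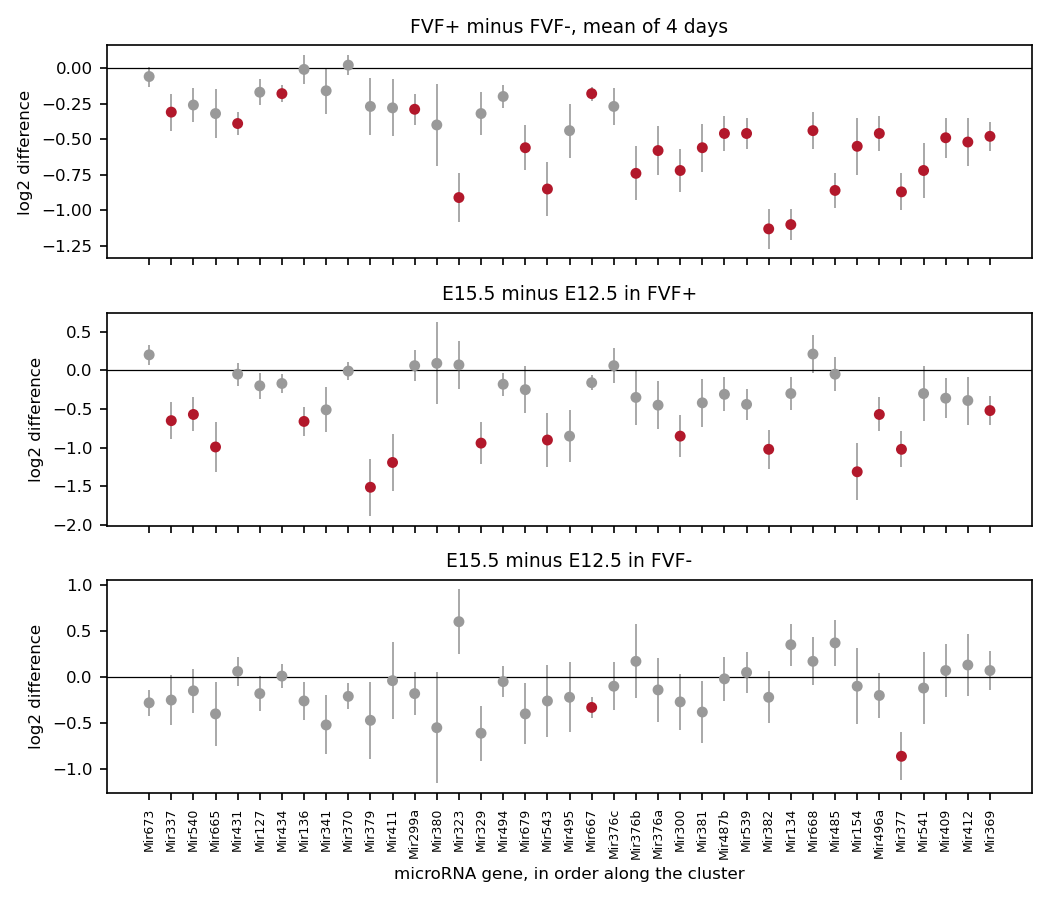
Log2 differences with SE of the 39 microRNA genes of the Dlk1-Dio3 region in their order along the region, for FVF+ minus FVF- averaged over days (top), E15.5 minus E12.5 in FVF+ (middle) and in FVF- (bottom), red where the gene passed the test. In the top panel 25 are red and 38 lie below 0, while 14 are red in the middle panel and 2 in the bottom panel.

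The remaining lists moved less between the sorts. The shares over all genes to set beside their counts were 25.2% lower and 30.5% higher in FVF+ cells. The let-7 family, repressors of growth genes that accumulate as tissues mature, had 10 measured members, 4 of them lower in FVF+ cells (Mirlet7e, Mirlet7a-2, Mirlet7i and Mirlet7g, at -0.36, -0.27, -0.25 and -0.17), 0 higher and a median of -0.15. The Mirlet7e call was lost when any 1 of 13 arrays was left out (-0.27, limma, adjusted p = 0.154, without FVF+ E13.5 replicate 2), and that of Mirlet7g without the same array (-0.14, adjusted p = 0.0579). The Mir17 clusters, linked to proliferation, had 3 higher and 1 lower of 13, with a median of 0.00. Mir17 was at 0.27 ± 0.08 and Mir19a at -0.45 ± 0.13. Of 6 microRNA genes of the Hox clusters, 2 were lower, Mir10a at -0.47 ± 0.05 and Mir615 at -0.30 ± 0.07.

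Few microRNA genes of other tissues passed, where 55.7% of all genes did. Of 7 blood cell microRNA genes, Mir142, a blood lineage microRNA, was lower (-0.15 ± 0.05) and Mir155, of activated immune cells, higher (0.18 ± 0.04). Of 7 striated muscle genes, Mir499 was higher by 0.13 ± 0.05, and liver Mir122 by 0.16 ± 0.06. Leaving out a single array ended the calls of Mir142 (2 arrays), Mir499 (5 arrays) and Mir122 (9 arrays), the widest move being Mir122 without FVF- E13.5 replicate 1 (0.10, limma, adjusted p = 0.144). By contrast 0 of 5 early embryo genes (Mir302 and Mir367) and 0 of 5 Sfmbt2 cluster genes passed at all. The part of mixed cell types in these values was not tested.

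Taken day by day, 61 members differed between the sorts at E12.5, 15 higher and 46 lower in FVF+ cells, or 20.8% against 35.9% of all genes. At E13.5, with 2 arrays a sort, 38 did, 15 higher and 23 lower, against 30.9%. At E14.5 there were 74, with 13 higher and 61 lower, against 44.6%, and at E15.5 there were 56, with 36 higher and 20 lower, against 43.9%. The split changed with scaling: under quantile normalization E12.5 had 23 higher and 41 lower and E13.5 had 9 higher and 31 lower, and centring the arrays on their medians gave 47 higher and 16 lower at E15.5, where cyclic loess gave 28 and 26. At 2-fold or more the counts at E12.5, E13.5 and E14.5 were 11, 16 and 23 members, against 11.6%, 11.2% and 14.4% of all genes, and at E15.5 there were 10 members, against 2598 of the 19296 genes. Array quality weights gave 94 members at E12.5, and a fit of only the groups compared gave 25 at E13.5. Without FVF- E12.5 replicate 2 the E12.5 count was 27, without FVF+ E12.5 replicate 3 it was 40, and the E13.5 count was 22 or 61 without FVF- E13.5 replicate 1 or 2.

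Mir141, Mir200a, Mir200b, Mir200c and Mir7-2 were higher on all 4 days, 5 of 293 members against 9.22% of all genes. Mir145a, Mir152, Mir218-1, Mir335 and Mir365-1 were lower on all 4, against 10.6%. Mir335, in the imprinted gene Mest, differed by -0.73 ± 0.12 on average. A total of 157 members were called on no day, a count that was not made over all genes. Mir138-1, Mir196b, Mir211, Mir23a and Mir717 were lower at E12.5 and higher at E15.5, 5 members against 2.02% of all genes called in opposite directions on different days. Mir717 moved from -0.95 ± 0.34 (adjusted p = 0.0356) to 0.95 ± 0.30 (adjusted p = 0.016), Mir23a from -0.36 ± 0.10 to 0.38 ± 0.09, and Mir211 from -0.44 ± 0.12 to 0.33 ± 0.11.

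The second comparison set E15.5 against E12.5 within each sort. In FVF+ cells 96 members changed, 32.8% against 46.9% of all genes, with 47 rising (27.6% of all genes rose) and 49 falling (19.3% of all genes fell). Quantile normalization gave 25 rising and 65 falling, and cyclic loess 24 and 67, so the balance of directions rests on the scaling. At 2-fold or more, 15 members were called, 5.12%, against 5.39% of all genes. Without FVF- E14.5 replicate 3 and FVF+ E12.5 replicate 1 the counts were 41 rising and 46 falling.

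In FVF- cells 41 of the 293 members changed, against 20.4% of all genes, 3 rising and 38 falling, where over all genes 10.7% rose and 9.7% fell. Centring gave 0 and 51, quantile normalization 3 and 49, and cyclic loess 4 and 42. With FVF- E12.5 replicate 1 left out the count was 23, and with replicate 2 left out it was 18. At 2-fold or more 13 members were called, against 3.32% of all genes. Marker levels of the FVF- arrays also moved between these days, with acinar genes at 8.48 and 8.50 at E12.5 and 9.56 to 10.56 at E15.5, and macrophage genes at 9.95 and 9.96 and then 10.94 to 11.35. Mast cell genes were at 9.94 and 9.43 and then 11.05 to 11.24, and red blood cell genes at 11.36 and 11.43 and then 9.70 to 10.57. Their part in the FVF- changes was not tested. The time change was called in both sorts for 21 members, of which 16 fell in both, 1 (Mir219a-1) rose in both, and 4 (Mir125a, Mir138-1, Mir211 and Mir23a) rose in FVF+ and fell in FVF- cells. Genes called in both sorts were not counted over all genes, so these counts have no share beside them.

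**Figure D4:**
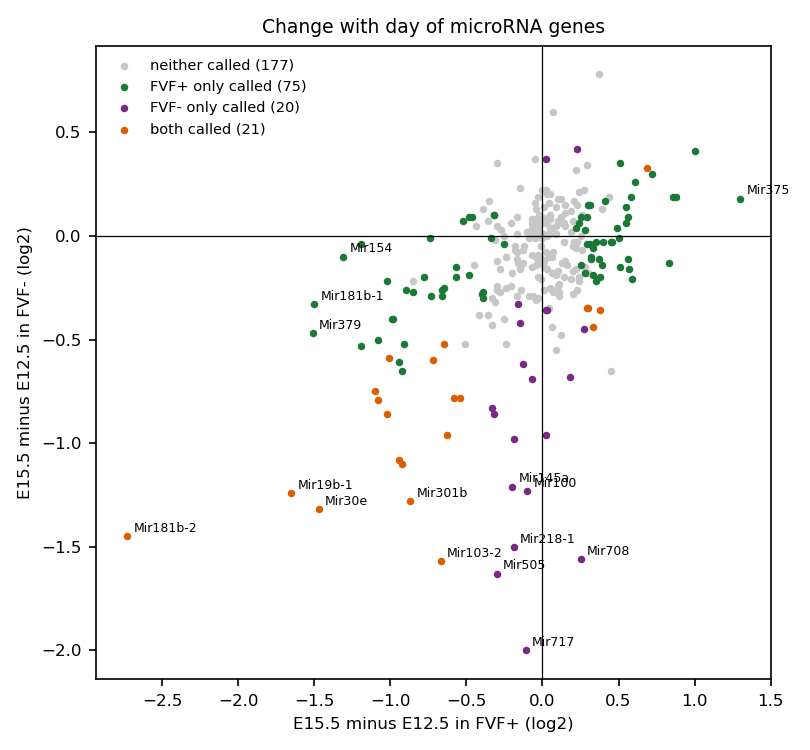
E15.5 minus E12.5 change in log2 level in FVF+ cells (horizontal axis) and FVF- cells (vertical axis) for 293 microRNA genes, 1 point per gene, coloured by the sort in which the change passed the test. Neither sort passed for 177 genes, FVF+ alone for 75, FVF- alone for 20 and both for 21, and Mir181b-2 and Mir375 lie farthest to the left and right.

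Mir181b-2 fell most in FVF+ cells. miR-181 is best known from T cell maturation. In FVF+ arrays Mir181b-2 was at 9.60, 9.55 and 9.60 at E12.5, 9.18 and 9.01 at E13.5, 7.92, 7.11 and 8.14 at E14.5, and 6.80, 6.43 and 7.34 at E15.5. No array of E14.5 or E15.5 reached a value of E12.5 or E13.5. The change was -2.73 ± 0.30 (adjusted p = 3.1e-06), 6.62-fold.

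In FVF- cells Mir181b-2 was at 9.74 and 9.21, then 8.97 and 9.89, then 6.86, 7.73 and 8.03, and then 7.92, 8.15 and 7.99. It fell there by 1.45 on the log2 scale (SE 0.34, limma, adjusted p = 0.00528), a call lost without FVF- E12.5 replicate 1 (-1.19, adjusted p = 0.0929). Of the 6 genes with this seed, 5 fell in FVF+ cells (Mir181a-1, Mir181a-2, Mir181b-1, Mir181b-2 and Mir181c, from -0.46 to -2.73) and Mir181d rose by 0.33. In FVF- cells Mir181a-2, Mir181b-2 and Mir181c fell, and the others were at 0.09, -0.33 and -0.19.

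Mir19b-1 belongs to the Mir17 cluster on chromosome 14, a target of Myc linked to proliferation. In FVF+ cells it was at 7.52, 7.84 and 7.97 at E12.5 and 5.66, 6.23 and 6.48 at E15.5, a change of -1.65 ± 0.22 (adjusted p = 2.4e-05). In FVF- cells it was at 7.34 and 7.74 and then 6.14, 6.29 and 6.47, a change of -1.24 ± 0.25. Both sorts were thus separated by day. Of the 5 cluster members (Mir17, Mir18, Mir19a, Mir20a and Mir19b-1), 4 fell in FVF+ and 3 in FVF- cells. Mir17 was at -0.94 ± 0.15 and -1.08 ± 0.16, and Mir20a at -1.08 ± 0.19 and -0.79 ± 0.21. Over the 13 measured genes of the Mir17 and related clusters, 6 fell in FVF+ cells and 4 in FVF- cells, and 0 rose in either. Of all genes, 19.3% fell in FVF+ and 9.7% in FVF- cells. The medians of the 13 were -0.40 and -0.28, against 0.09 and 0.00 for all genes.

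Mir30e was at 8.19, 8.83 and 8.84 at E12.5 and 6.48, 7.44 and 7.54 at E15.5 in FVF+ cells, a change of -1.47 ± 0.28. In FVF- cells it changed by -1.32 ± 0.31, a call lost without FVF- E12.5 replicate 1 (-1.30, limma, adjusted p = 0.0503). Of the let-7 family, 4 of 10 fell in FVF+ cells (median -0.20) and 3 in FVF- cells (median -0.36). Of all genes, 19.3% fell in FVF+ and 9.7% in FVF- cells. Mirlet7d was at -1.01 ± 0.17 and -0.59 ± 0.19. It shares a cluster with Mirlet7f-1 and Mirlet7a-1, and 2 of these 3 fell in each sort.

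Other falls in FVF+ cells were Mir379 (-1.51 ± 0.37), Mir181b-1 (-1.50 ± 0.42), Mir154 (-1.31 ± 0.37), Mir411 (-1.19 ± 0.37) and Mirlet7c-1 (-1.19 ± 0.41), of which Mir379, Mir154 and Mir411 are in the Dlk1-Dio3 region. The Mir154 and Mir411 calls were lost without FVF+ E12.5 replicate 2 (-0.99 and -0.95, limma, adjusted p = 0.052 and 0.075), and that of Mirlet7c-1 too (-1.04, adjusted p = 0.0806). Mir411 also lost it without FVF+ E12.5 replicate 3 or E15.5 replicate 1, and Mirlet7c-1 without these or E15.5 replicate 2. The epithelial list had 2 rising and 2 falling, where 27.6% of all genes rose and 19.3% fell. Mir200b was at -0.98 ± 0.31 (limma, adjusted p = 0.0167) and Mir200a at -0.48 ± 0.17. Under quantile normalization the list had 1 rising and 5 falling.

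Mir375 rose most in FVF+ cells, by 1.30 ± 0.26 (2.46-fold, adjusted p = 6.3e-04), and the lowest E15.5 array (9.55) lay above the highest of E12.5 (9.36). The mean of the 7 endocrine marker genes was 11.22 to 11.66 in the FVF+ arrays of E12.5 and 12.72 to 12.81 in those of E15.5; its part in the Mir375 change was not tested. Mir6516 (1.0 ± 0.17), Mir615 (0.88 ± 0.14), Mir320 (0.86 ± 0.14), Mir491 (0.83 ± 0.16), Mir187 (0.72 ± 0.13) and Mir219a-1 (0.69 ± 0.09) followed. Mir615, in the Hoxc cluster, was at 8.76, 8.66 and 8.51 at E12.5 and 9.51, 9.44 and 9.63 at E15.5. Of the 6 Hox cluster genes, 3 rose in FVF+ cells, against 27.6% of all genes, with a median of 0.25.

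In FVF- cells the largest fall was Mir717, in the intron of the growth regulator Gpc3. It was at 10.46 and 10.80 at E12.5, 9.62 and 9.05 at E13.5, 7.91, 9.13 and 8.80 at E14.5, and 8.90, 8.55 and 8.44 at E15.5, a change of -2.0 ± 0.34 (adjusted p = 3.9e-04). All later arrays were below both E12.5 arrays. Mir505 (-1.63 ± 0.42), Mir103-2 (-1.57 ± 0.28), Mir708 (-1.56 ± 0.25), Mir218-1 (-1.50 ± 0.44) and Mir301b (-1.28 ± 0.26) followed. The Mir218-1 call was lost without FVF- E15.5 replicate 1 (-1.02, limma, adjusted p = 0.106) or either E12.5 array (-1.53 and -1.47, adjusted p = 0.106 and 0.12). That of Mir505 was lost without either E12.5 array as well (-1.64 and -1.61, adjusted p = 0.067 and 0.0714).

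Of the mesenchyme and smooth muscle list 3 fell in FVF- cells, against 9.7% of all genes, with Mir145a at -1.21 ± 0.26 and Mir143 at -0.96 ± 0.18. Mir143 was at 9.04 and 9.13 at E12.5 and 7.70, 8.28 and 8.40 at E15.5. The 3 rises were Mir484 (0.42 ± 0.13), Mir142 (0.37 ± 0.11) and Mir219a-1 (0.33 ± 0.10). Each of these calls was lost without either FVF- E12.5 array (without replicate 2 they were 0.33, 0.42 and 0.28, limma, adjusted p = 0.246, 0.0632 and 0.218) and without FVF- E15.5 replicate 2, and those of Mir484 and Mir219a-1 also without E15.5 replicate 1.

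An F test over all 4 days called 110 members in FVF+ cells (37.5%, against 45% of all genes) and 58 in FVF- cells (19.8%, against 27.4%). The FVF- count was 33 without FVF- E12.5 replicate 2 and 36 when only the groups compared were fitted. In FVF+ cells, Mir181b-2 had the smallest p (F = 32.2, adjusted p = 1.0e-05). The lowest day was E14.5 for 72 of the 110, and the highest was E12.5 for 49 and E15.5 for 50. In FVF- cells, where Mir181c had the smallest p (F = 22.2, adjusted p = 1.6e-04), the highest day was E12.5 for 37 of the 58. The median over all members of an array was also lowest at E14.5 in FVF+ cells, at 6.56 to 6.67, against 6.94 to 7.09 at E12.5, while array medians over all genes stayed between 8.71 and 8.87. The part of this shift in the F test was not tested.

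The third comparison asked whether this change over 3 days differed between the sorts, as the FVF+ change minus the FVF- change. It did in 33 members, 11.3% against 19.6% of all genes, 32 of them positive and 1 negative, where over all genes 10.8% were positive and 8.83% negative. Cyclic loess gave 18 positive and 5 negative, quantile normalization 32 and 5. At 2-fold or more 3 members were called, against 5.71% of all genes. A replicate block by day and number lowered the count, as given at the end, and array quality weights gave 63 positive and 8 negative. The count was 10, 18 or 21 without FVF- E12.5 replicate 2, FVF+ E12.5 replicate 3 or FVF- E15.5 replicate 3.

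Mir717, which fell in FVF- cells, was at -0.11 in FVF+ cells, where it read 9.28, 10.08 and 9.69 at E12.5 and 10.16, 8.92 and 9.65 at E15.5. The difference between the changes was 1.89 ± 0.45 (adjusted p = 0.0078), a call lost without FVF- E12.5 replicate 2 (1.72, limma, adjusted p = 0.0519). For Mir708 it was 1.82 ± 0.34 (adjusted p = 0.00139), for Mir143 0.98 ± 0.24 and for Mir194-1 0.80 ± 0.16. Mir491, in the intron of Focad, was at 5.83, 5.98 and 6.03 at E12.5 and 6.99, 6.47 and 6.88 at E15.5 in FVF+ cells and at 5.60 to 6.22 in all FVF- arrays, with a difference of 0.97 ± 0.24. Mir140 was the 1 negative, at -0.56 ± 0.17, a call lost without any of 4 arrays (-0.41, limma, adjusted p = 0.152, without FVF- E12.5 replicate 1).

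Mir375 had a difference between the changes of 1.12 ± 0.38, which passed narrowly (adjusted p = 0.0481) and was kept in 9 of 33 alternative analyses. Without FVF+ E15.5 replicate 2 it was 0.81 (limma, adjusted p = 0.106).

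Several genes make the same mature strand, and in 22 groups of such loci the values could be set side by side. For the sort difference 10 groups had no member called, 8 had some and 4 had all in 1 direction, with 0 opposite. Mir218-1 and Mir218-2 stood at -2.81 and 0.00, Mir199b and Mir199a-1 at -1.72 and -0.38, Mir365-1 and Mir365-2 at -1.51 and -0.49, and Mir7-2 and Mir7-1 at 0.71 and -0.13. For the change in FVF+ cells Mir19b-1 and Mir19b-2 stood at -1.65 and -0.13. Differences between the loci were not tested, and probes within a shared mature stretch may not tell such loci apart.

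Host genes on the same strand were measured for 86 members, in 87 pairs with 70 hosts. For the mean sort difference both partners were called in 19 pairs, 17 in the same direction and 2 in opposite directions. In 39 pairs the host alone was called, in 3 the microRNA alone, and in 26 neither. Of all genes 55.7% were called, 30.5% higher and 25.2% lower. Some pairs share a host, so pairs are not independent, and agreement between unrelated genes was not counted. Of 10 distinct hosts called at 2-fold or more, 6 had a microRNA called in the same direction.

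Slit2 and Mir218-1 gave the clearest such pair, with Slit2 at -3.72 ± 0.18 against -2.81. Slit2 was at 8.28 to 10.29 in FVF+ arrays and 12.17 to 13.23 in FVF- arrays, without overlap. Mir100hg and Mir100 were at -2.08 and -1.22, Copz2 and Mir152 at -1.68 and -0.85, Egfl7 and Mir126a at -1.15 and -0.47, and Mest and Mir335 at -0.88 and -0.73. Ptprn2 and Mir153 had the widest gap, 2.95 and 0.36. Other hosts called at 2-fold or more had a microRNA that did not pass. These were Pde2a with Mir139 (-1.87 and -0.03), Chrm2 with Mir490 (-1.75 and 0.07), Fgf13 with Mir504 (-1.14 and -0.03) and Pank1 with Mir107 (1.06 and 0.16). The pairs called in opposite directions were Nsrp1 and Mir423, at 0.44 and -0.20, and Sf3a3 and Mir697, at 0.23 and -0.38. Dnm1, on the strand opposite Mir199b, was at -1.89 beside -1.72.

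Over time, both partners were called in 17 pairs in FVF+ cells, 14 in the same direction, and in 12 pairs in FVF- cells, all 12 in the same direction. The host alone was called in 35 pairs in FVF+ and 23 in FVF- cells, and the microRNA alone in 12 and 3. Of all genes, 46.9% were called in FVF+ and 20.4% in FVF- cells, and agreement between unrelated genes was again not counted. Of distinct hosts called at 2-fold or more, 2 of 7 in FVF+ and 3 of 5 in FVF- had a microRNA called the same way. Ska2 and Mir301 fell by 1.21 and 1.10 on the log2 scale in FVF+ cells. Mir717 fell by 2.0 in FVF- cells while Gpc3 was at -0.33, and Mir30e changed by -1.47 in FVF+ cells with its host Nfyc at -0.22, which did not pass. Focad and Mir491 rose by 0.63 and 0.83 in FVF+ cells.

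The genes that make and use microRNAs were measured in the same fit, 27 of them from a list of processing and silencing factors. Averaged over days, 9 were higher in FVF+ cells and 3 lower, where over all genes 30.5% were higher and 25.2% lower. Trim71, a let-7 target and RNA-binding ubiquitin ligase of early development, was higher by 1.02 ± 0.11 (adjusted p = 9.5e-08), at 9.42 to 10.29 in FVF+ and 8.31 to 9.37 in FVF- arrays, so the ranges did not overlap. Dicer1 was higher by 0.52 ± 0.07, the Argonaute gene Ago1 by 0.57 ± 0.05, and Tut4, which adds uridines to let-7 precursors, by 0.68 ± 0.16. The helicase Mov10 was at -0.37, Tnrc6c, a silencing scaffold, at -0.25 and Ddx17, a Drosha partner, at -0.20. Under cyclic loess 4 were higher and 3 lower.

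From E12.5 to E15.5, 12 of the 27 fell and 0 rose in FVF+ cells, where 19.3% of all genes fell and 27.6% rose. In FVF- cells 9 fell and 0 rose, where 9.7% of all genes fell and 10.7% rose. Dicer1 fell in both, by 0.56 and 1.04 on the log2 scale. It was at 12.29, 12.23 and 12.19 in FVF+ at E12.5 and 11.71, 11.64 and 11.68 at E15.5. Drosha fell by 0.73 and 0.66, and Lin28b, which blocks let-7 maturation, by 0.62 and 0.82. Tut4 fell in FVF+ cells, by 1.56 (SE 0.30), and was at -0.27 in FVF- cells, a difference between the changes that did not pass (limma, adjusted p = 0.0502).

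The base composition of the hairpins moved with the values. Among 256 members with a hairpin sequence, GC content ran from 28.4% to 69.2% with a median of 47.4%. Across genes, which are not independent and share the 21 arrays, Spearman's rho of GC content with the mean level was 0.667, with the FVF+ change over time 0.387 and with the FVF- change -0.082. With the mean sort difference it was -0.0163, but the daily values differed in sign, at -0.33 for E12.5, 0.169 for E13.5, -0.107 for E14.5 and 0.255 for E15.5. With the difference between the time changes it was 0.459, the highest among the contrasts. Under quantile normalization the FVF+ value was 0.326 and under cyclic loess 0.315.

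Among the members that changed in FVF+ cells, the 37 risers had a median GC of 57.5% and the 44 that fell 45.1%, while the 175 not called were at 46.8%. Among the 64 members of highest GC, at least 53.8%, 25 rose and 3 fell, and among the 64 of lowest GC, at most 42.4%, 1 rose and 12 fell. The part of base composition in the FVF+ changes, the daily sort differences and the differences between time changes was not tested. Hairpins of a member that rose in both sorts, of one that fell in both and of the one with the largest positive sort difference follow, with the mature arm in capitals:
Mir219a-1: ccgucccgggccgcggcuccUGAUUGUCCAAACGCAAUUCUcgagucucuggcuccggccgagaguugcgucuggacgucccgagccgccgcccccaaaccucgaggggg
Mir19b-1: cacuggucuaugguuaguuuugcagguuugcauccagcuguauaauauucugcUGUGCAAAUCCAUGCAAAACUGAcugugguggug
Mir200b: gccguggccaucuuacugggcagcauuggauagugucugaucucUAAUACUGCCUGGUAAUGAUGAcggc
Mir219a-1, at chr17:34024983-34025092 on the minus strand, has 69.1% GC and rose in both sorts. Its FVF- call was lost without some single arrays, as given above. Centring the arrays on their medians also ended that call (0.25, limma, adjusted p = 0.0958). Mir19b-1, at chr14:115044305-115044391 on the plus strand, has 43.7% and fell in both. Mir200b, at chr4:156055681-156055750 on the minus strand, has 51.4%.

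**Figure D5:**
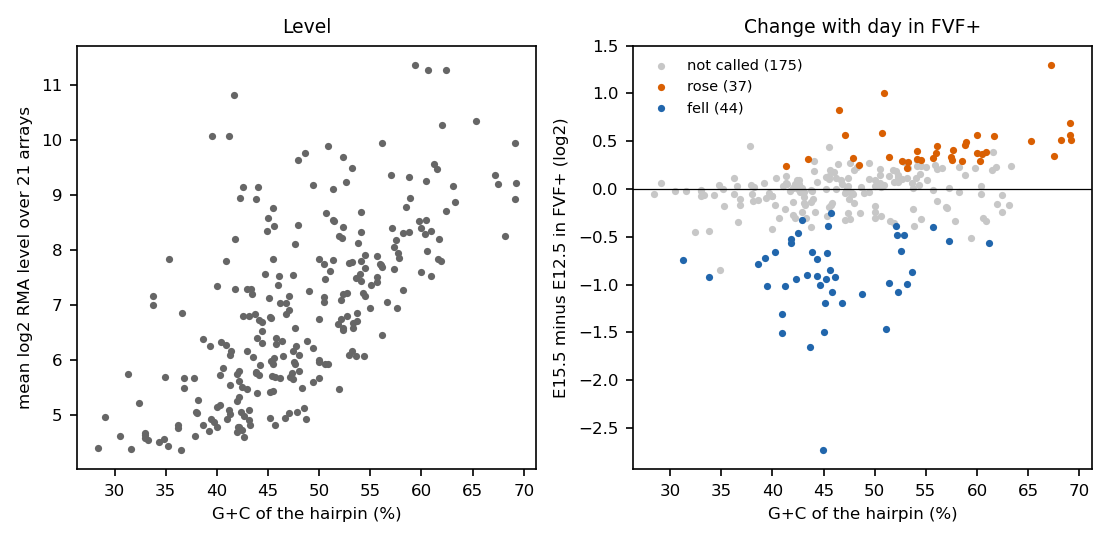
GC content of the hairpin in percent against the mean log2 level (left) and against the E15.5 minus E12.5 change in FVF+ cells (right) for 256 microRNA genes, 1 point per gene, with genes that rose and fell coloured. The 37 genes that rose lie mostly at high GC, with a median of 57.5%, and the 44 that fell have a median of 45.1%.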

How the data were processed

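MicroRNA genes were measured on 21 arrays of sorted mouse pancreas. The labels' protocols name the Qiagen RNeasy Mini kit for the RNA, the Ambion WT Expression kit and Affymetrix WT labelling. The authors' deposited log2 values are RMA summaries made with affy 1.44.0, per the submitters' processing notes; the definition of the probe sets was not stated there. The table had 23305 probe sets, of which 20728 had 1 symbol, 1174 several and 1403 none. Where a gene had several probe sets, the one with the highest mean was used.

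Using limma 3.58.1 in R 4.3.3, 1 mean per sort and day (8 groups, 13 residual degrees of freedom) was fitted to each of the 19296 genes, for 10 comparisons. The threshold was an adjusted p of 0.05 (Benjamini and Hochberg over all genes; two-sided except the F tests). The number of arrays limits the precision. Fits were tested on simulated data. Alternatives were scaling, variance moderation, array weights, a dim-gene filter, blocks, a term for arrays with letter-coded descriptions, and leaving out each array.

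The members and lists were chosen with earlier results of these data known, from knowledge of tissues. Genes were named by rule: the 10 largest rises and falls of the sort difference, 8 of each change in time, 6 of the interaction, 3 of each day, the 8 smallest p of each F test, the 5 brightest and up to 4 called of each list per direction. Others (counts of 5 or fewer, locus and host pairs, seed families) were named after their values were seen. Hosts are genes whose span holds the microRNA gene on the same strand, and clusters have gaps of at most 10 kb.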

Additional observations from a re-analysis of the deposited data

Results flagged for a closer look

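The E15.5 minus E12.5 change differed between the sorts in 33 microRNA genes, by limma's test of the difference itself, or 11.3% against 19.6% of all genes. The differences, FVF+ change minus FVF- change, were 1.89 for Mir717, 1.82 for Mir708, 1.12 for Mir375, 0.98 for Mir143, 0.97 for Mir491, 0.80 for Mir194-1 and -0.56 for Mir140. Mir717, Mir708 and Mir143 fell in FVF- cells, and Mir375, Mir491 and Mir194-1 rose in FVF+ cells. The Mir375 call was kept in 9 of 33 alternatives and that of Mir140 in 27 of 32, and that of Mir717 was lost without FVF- E12.5 replicate 2 (1.72, limma, adjusted p = 0.0519).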

How the results depend on the processing

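No named result changed sign under any alternative run, and 79 of 99 kept their call in all of them; the calls of Mir106a (11 of 31), Mirlet7e (13 of 32), Mir122 (19 of 31) and Mir375 in the interaction (9 of 33) were kept least often. Leaving out dim genes tested 64 members, and the counts called were 34 (mean sort difference), 24, 14, 35 and 19 (E12.5 to E15.5), 33 and 15 (time in FVF+ and FVF-), 14 (interaction), and 45 and 25 (F tests). At 2-fold or more they were 10, 11, 16, 23, 10, 15, 13 and 3 in the same order without the F tests, and 1 for the pathway genes. Array quality weights, which stopped before convergence, gave 94 at E12.5 and 71 for the interaction. A term for arrays with letter-coded descriptions gave 22 at E13.5, fitting only the groups compared gave 25 at E13.5 and 36 for the F test in FVF-, and cyclic loess gave 7 pathway genes. With each array left out in turn the counts were 94 to 117 (mean sort difference), 27 to 66, 22 to 61, 50 to 84 and 41 to 62 (the 4 days), 67 to 102 and 18 to 45 (time in FVF+ and FVF-), 10 to 40 (interaction), 89 to 120 and 33 to 63 (F tests in FVF+ and FVF-) and 9 to 13 (pathway). The lowest F test count in FVF-, 33, was without FVF- E12.5 replicate 2. The causes were not tested.

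Whether same-numbered arrays of the 2 sorts belong together is not known from the labels used here. Correlations of their deviations from the group means ran from -0.368 to 0.488. Groups of 2 or 3 arrays are too small for these values to settle it. A replicate block by number gave 104 members for the mean sort difference, 92 and 37 for time in FVF+ and FVF-, and 27 for the interaction. A replicate block by day and number gave 37 at E12.5, 13 for the interaction and 99 for the mean sort difference. Raw intensities were not used, so signal over background could not be set against these counts.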
